A study of Mus musculus with 10 samples.

Results

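The transcripts of the mouse mitochondrial genome were taken as all genes whose symbol begins with mt-, and 37 of the 38922 genes in the gene tables met that rule. They comprised 13 mRNAs, 2 ribosomal RNAs and 22 transfer RNAs. Counts were available for 10 livers of male, wild-type C57BL/6N mice that were 6 weeks old. Of these, 5 mice had been injected intraperitoneally with 0.5 µg of CD95-activating antibody (CD95-Ab) per g of body weight, an antibody that triggers the death receptor CD95 (Fas) and acutely injures the liver, and 5 with the matching volume of saline. All livers were taken 6 h after injection, no genetic change was given for either group, and each mouse contributed 1 library prepared from 500 ng of total RNA of whole liver. The comparison of the groups asks how the RNA made inside mitochondria stood while the liver was being injured.

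Mitochondrial DNA is a small circle present in many copies per cell, and hepatocytes are rich in mitochondria. Both of its strands are transcribed as long precursors by the RNA polymerase Polrmt, and most mRNAs and rRNAs are freed when the tRNAs that lie between them are cut out. The mRNAs encode core subunits of respiratory chain complexes I, III and IV and of ATP synthase (complex V). The mitochondrial rRNAs, 12S (mt-Rnr1) and 16S (mt-Rnr2), form the small and the large subunit of the ribosome that translates them, and all of the proteins of that ribosome are imported. In bulk liver RNA, fewer cells of a type and less RNA per cell cannot be told apart.

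The genome is packed so tightly that some genes share bases, and reads from those bases cannot be given to a single gene. The 2 overlaps between neighbours that serve the same complex and lie on the same strand are shown first, from the plus strand of chromosome M of build GRCm38 (GENCODE M21), with the shared bases in capitals. The overlap of mt-Atp8 and mt-Atp6, which encode subunits of ATP synthase, covers 43 bases at chrM:7927-7969, and the overlap of mt-Nd4l and mt-Nd4, which encode complex I subunits, covers 7 bases at chrM:10167-10173.
mt-Atp8 and mt-Atp6: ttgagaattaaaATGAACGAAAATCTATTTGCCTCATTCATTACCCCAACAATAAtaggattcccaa
mt-Nd4l and mt-Nd4: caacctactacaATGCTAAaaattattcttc
Several mitochondrial mRNAs lack a complete stop codon in the DNA and gain it from the poly(A) tail that is added to the RNA. In 3 of the 13 mRNAs the annotated gene ended 1 base past its last whole codon, and that base, in capitals, is a T in each. They are the mRNAs of complex IV subunit 3 (ending at chrM:9390), complex I subunit 4 (chrM:11544) and cytochrome b of complex III (chrM:15288), all on the plus strand.
mt-Co3: tccatttattgatgaggatctT
mt-Nd4: ctaattacaggcctgacaataT
mt-Cytb: aaaatactaaaattatatccaT

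The tRNAs, which carry amino acids to the mitochondrial ribosome, were listed at 0 in all 10 mice, each of the 22. They are 59 to 75 nt long, while the reads were 100 nt long. The shortest and the longest are shown to give their scale, mt-Ts2 at chrM:11613-11671 and mt-Tl1 at chrM:2676-2750, both on the plus strand.
mt-Ts2: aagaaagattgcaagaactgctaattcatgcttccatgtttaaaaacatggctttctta
mt-Tl1: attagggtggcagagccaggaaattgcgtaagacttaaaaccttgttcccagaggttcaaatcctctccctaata
Short genes held few counts across the whole table. Among 2133 genes whose longest transcript is under 100 nt, 7 held any count, 12 counts in all, and among 3625 genes of 100 to 199 nt, 263 did. A count of 0 in these tables is therefore no measure of a mitochondrial tRNA, and no tRNA was compared between groups. The 13 mRNAs and 2 rRNAs had counts in every mouse, and all 15 passed the filter on low counts, among 13719 genes tested.

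The libraries held 25965699 to 62097636 counts. Saline replicate 5 was the deepest and stood apart from the other saline mice in its mitochondrial content, so the calls it changed and the values it moved by over 1.5 times are also given without it, apart from changes near 0 relative to the 13 mRNAs or between neighbours. The labels name no batch. Albumin, the main plasma protein made by hepatocytes, took 7.72% to 9.65% of the counts in saline mice and 2.88% to 5.44% in CD95-Ab mice, so the tissue was liver by this marker and the groups were separate in it. A gene is called here where its adjusted p (Benjamini-Hochberg over all tested genes) in edgeR's quasi-likelihood test is 0.05 or less, and over all 13719 genes 47.3% were called, 25.4% higher and 22.0% lower. Among marker lists, 0 of 11 hepatocyte genes were called higher and 5 lower, all 7 erythroid genes, 4 of 5 platelet genes and all 5 neutrophil genes tested were called higher, and 2 of 7 macrophage genes were called higher, a share near that of all genes. Without saline replicate 5, 1 macrophage gene was called higher, and the counts of the other 4 marker lists were as before. Of 9 listed neutrophil genes, 5 passed the filter on low counts, and of 6 listed platelet genes, 5 did. A gene can pass it through the CD95-Ab mice alone, so the neutrophil and platelet calls lend no separate support. The summed level of the erythroid genes was 135 to 325 CPM (counts divided by the TMM-scaled library total, times 1000000) in saline mice and 1063 to 33995 in CD95-Ab mice.

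Mitochondrial transcripts made up a large and uneven part of every library. In saline replicates 1 to 5 they took 8.0%, 7.56%, 9.67%, 10.1% and 21.9% of all counts. In CD95-Ab replicates 1 to 5 they took 8.45%, 11.3%, 18.0%, 22.1% and 14.1%. The groups overlapped: 4 saline mice lay at the low end with CD95-Ab replicate 1, and saline replicate 5 matched the highest CD95-Ab mouse. The mean was 11.4% ± 5.92 (SD, n = 5) in saline and 14.8% ± 5.39 (SD, n = 5) in CD95-Ab mice, a difference of 3.36 percentage points that was smaller than either SD. Without saline replicate 5 the saline mean was 8.84% ± 1.25 (SD), so the SD of 5.92 rested largely on that mouse. The difference was then 5.96 points, and without CD95-Ab replicate 4 it was 1.54 points.

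**Figure D1:**
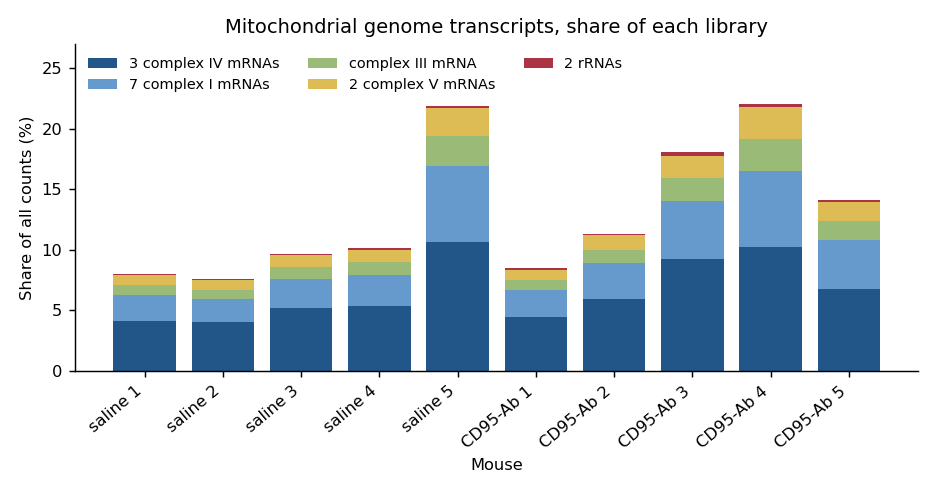
Share of all counts (y axis, %) taken by mitochondrial genome transcripts in each of the 10 mice (x axis), stacked by the respiratory complex that the mRNAs serve, with the rRNAs on top. Saline 5 reached 21.9%, next to 22.1% in CD95-Ab 4, while the other 4 saline mice lay between 7.56% and 10.1%.

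The largest part of these counts came from the mRNAs of complex IV, cytochrome c oxidase, the enzyme that passes electrons to oxygen. Its 3 mRNAs held 52.5% ± 2.15 (SD, n = 5) of the counts of the 13 mRNAs in saline and 50.7% ± 2.89 in CD95-Ab mice. The 7 mRNAs of complex I, the NADH dehydrogenase, held 26.6% ± 1.81 and 27.5% ± 1.22. The mRNAs of complex V held 10.5% ± 0.171 and 10.8% ± 0.874, and mt-Cytb of complex III 10.4% ± 0.485 and 11.0% ± 0.963. In none of these classes were the groups separate.

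Levels per length were read from the deposited FPKM (fragments scaled by transcript length and library size). In saline mice mt-Co1, the catalytic subunit of complex IV, was highest at a mean of 24187 FPKM ± 10974 (SD, n = 5). It was followed by mt-Atp6 (17299 FPKM), mt-Co2 (17080 FPKM) and mt-Co3 (16344 FPKM), then by mt-Cytb (11076 FPKM). The order of mt-Atp6 and mt-Co2 held in 5 of 10 mice and that of mt-Co2 and mt-Co3 in 8 of 10, whereas mt-Co1 stood above mt-Atp6, and mt-Co3 above mt-Cytb, in all 10. A middle group held mt-Atp8 (7832 FPKM), mt-Nd4 (7666 FPKM), mt-Nd2 (6978 FPKM) and mt-Nd1 (6907 FPKM), whose neighbours changed places between mice. Below them lay mt-Nd3 (3410 FPKM), mt-Nd6 (2811 FPKM) and mt-Nd5 (2711 FPKM). mt-Nd6, a complex I subunit and the sole mRNA encoded on the other strand, was above mt-Nd5 in 6 of 10 mice. mt-Nd4l was listed lowest of the mRNAs at 1983 FPKM, but an equal count stood under a nuclear copy, as described further on, so its place in the order is uncertain. mt-Atp8 shares a transcript with mt-Atp6, and mt-Nd4l with mt-Nd4. The different FPKM within each pair are therefore not levels of separate messages. The mRNA order by mean FPKM in CD95-Ab mice differed from this by the exchange of mt-Atp6 and mt-Co2, a pair without a fixed order between mice. Both rRNAs lay far below the mRNAs per length, at 502 FPKM ± 169 for mt-Rnr2 and 391 FPKM ± 116 for mt-Rnr1 in saline mice. The reagents used, as commonly supplied, select polyadenylated RNA, so a level per length here is that of RNA that passed this step and not of the rRNA in the cell.

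In the test across all genes, CD95-Ab mice differed from saline mice in 1 of the 15 mitochondrial genes. mt-Rnr1, the 12S rRNA, was higher, and no mitochondrial gene was lower. The share of mitochondrial genes called was below the 47.3% of all tested genes.

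In saline replicates 1 to 5 mt-Rnr1 stood at 238, 275, 338, 291 and 609 CPM. In CD95-Ab replicates 1 to 5 it stood at 511, 691, 1258, 1846 and 630 CPM. All CD95-Ab mice were above the other 4 saline mice, while saline replicate 5 lay above CD95-Ab replicate 1. The log2 fold change was 1.50 ± 0.38 (SE), with an adjusted p of 0.00649 by edgeR, and 1.78 ± 0.36 without saline replicate 5. mt-Rnr2, the 16S rRNA, stood at 523, 549, 683, 684 and 1402 CPM in saline mice and at 557, 597, 1694, 1634 and 773 CPM in CD95-Ab mice. These groups overlapped with and without saline replicate 5, and the log2 fold change was 0.45 ± 0.38 (SE), with an adjusted p of 0.353 by edgeR. Without that mouse the log2 fold change of mt-Rnr2 was 0.78, with an adjusted p of 0.0861.

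The 13 mRNAs were each higher on average in CD95-Ab mice, but none passed the test. Their log2 fold changes lay between 0.27 for mt-Nd5, a complex I subunit, and 0.55 for mt-Nd2, another, with a median of 0.48, against a median of 0.01 over all tested genes. Their standard errors were 0.40 to 0.47 and their adjusted p-values by edgeR 0.334 to 0.636. mt-Co1 had the highest level of the 13. In saline replicates 1 to 5 it was at 23512, 22079, 30261, 32139 and 74521 CPM. In CD95-Ab replicates 1 to 5 it was at 24155, 36097, 61860, 68601 and 40353 CPM. For mt-Co1 saline replicate 5 had the highest value of all 10 mice, and 4 of the 5 CD95-Ab mice were above the other 4 saline mice. Saline replicate 5 was also the highest mouse for mt-Nd1, mt-Nd4l, mt-Nd5 and mt-Nd6. For the other mRNAs CD95-Ab replicate 4 was the highest. The log2 fold change of mt-Co1 was 0.34 ± 0.40 (SE), with an adjusted p of 0.508 by edgeR.

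Saline replicate 5 decided the calls of the mRNAs. Without it the 13 log2 fold changes were 0.77 to 1.11, with a median of 0.99, and 8 of the 13 mRNAs were called higher by edgeR, with 47.0% of 13901 genes called in that fit, 25.3% higher. They were mt-Nd1, mt-Nd2, mt-Nd4l, mt-Nd4, mt-Nd5, mt-Co2, mt-Atp8 and mt-Cytb, with adjusted p-values from 0.0219 for mt-Nd2 to 0.0498 for mt-Nd5. The remaining 5 had adjusted p-values up to 0.0704, that of mt-Co1, which also had the smallest log2 fold change of the 13. Nothing in the labels sets saline replicate 5 apart, so the fit with all 10 mice was kept as the result. CD95-Ab replicate 4 acted the other way: without it the log2 fold change of mt-Nd6 was 0.00 and that of mt-Nd2 0.22.

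**Figure D2:**
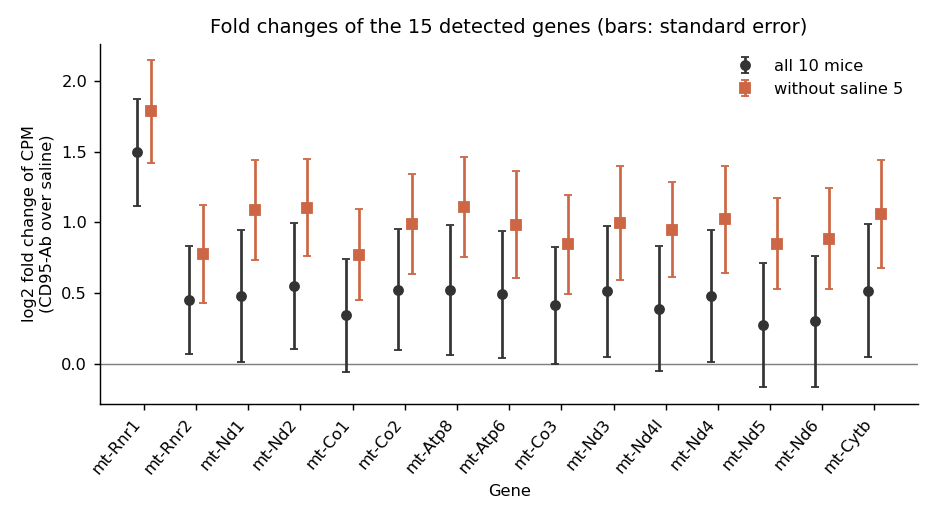
log2 fold change of CPM in CD95-Ab over saline mice (y axis) for the 15 mitochondrial genes with counts (x axis), with all 10 mice (circles) and without saline 5 (squares); bars are standard errors of the fit. mt-Rnr1 stood at 1.50 and 1.78, and the 13 mRNAs lay at 0.27 to 0.55 with all mice and at 0.77 to 1.11 without saline 5.

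The mRNAs varied together from mouse to mouse. The highest mouse exceeded the lowest by 3.38 to 5.68 times in CPM, depending on the mRNA, and the coefficient of variation among saline mice was 59.4% to 79.2%. As a share of the 13 mRNAs the same genes differed by only 1.11 to 1.70 times between the highest and the lowest mouse, with coefficients of variation among saline mice of 1.78% to 20.4%. Shares of a whole are not independent of each other, so this describes a composition and not separate genes. The saline spread in CPM rested largely on saline replicate 5. Without it mt-Co1 stood at 26998 CPM ± 4947 (SD), against 36502 ± 21681 with it, and its share at 33.0% ± 0.713. mt-Nd2 then stood at 4745 CPM ± 668 and 5.87% ± 0.796, and mt-Nd6 at 884 CPM ± 231 and 1.08% ± 0.247. Relative to the mean, CPM and share of mt-Nd2 and mt-Nd6 thus varied to a similar degree in those saline mice, unlike mt-Co1. Among CD95-Ab mice the coefficients for mt-Nd2 were 48.5% in CPM and 7.18% in share.

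Within that composition no mRNA differed between groups by edgeR when the summed counts of the 13 mRNAs served as the library size. Their log2 changes were -0.10 to 0.13 and the adjusted p-values 0.834 to 1.0, with 17.7% of all tested genes called on this scale. The standard errors of this fit were 0.35 to 0.46, wider than the changes themselves, so differences of this size were not detectable by it. On this scale the median of all genes stood at -0.48, and the values are relative to the 13 mRNAs.

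mt-Co2, a complex IV subunit, came nearest to a separation. Its share was 9.17%, 9.42%, 9.59%, 9.99% and 9.25% in saline mice and 10.1%, 9.98%, 10.1%, 10.2% and 9.64% in CD95-Ab mice. The ranges overlapped through saline replicate 4. The log2 difference was 0.08, with an exact two-sided permutation p of 0.0238 that became 0.145 when adjusted over all tested genes. The lowest adjusted p that this test could give on this scale was 0.108. mt-Co1 had a mean share of 32.4% ± 1.53 (SD, n = 5) in saline and 30.4% ± 2.51 in CD95-Ab mice, but the groups overlapped widely and its exact permutation p was 0.183, or 0.365 adjusted over all tested genes.

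**Figure D3:**
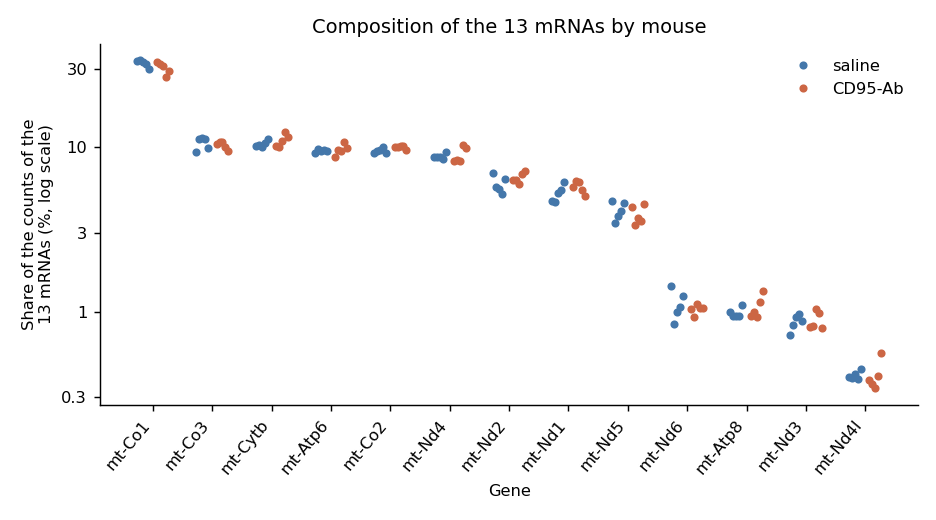
Share of the summed counts of the 13 mRNAs (y axis, %, log scale) held by each mRNA (x axis), with 1 point per mouse in replicate order within each group. The points of saline and CD95-Ab mice overlapped for all 13 mRNAs, from mt-Co1 near 32.4% to mt-Nd4l near 0.409% in the saline mean.

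mt-Rnr1 stood apart from the mRNAs. Relative to the 13 mRNAs it held 0.338%, 0.421%, 0.367%, 0.291% and 0.244% in saline replicates 1 to 5 and 0.697%, 0.617%, 0.632%, 0.720% and 0.453% in CD95-Ab replicates 1 to 5. Every CD95-Ab mouse was above every saline mouse, saline replicate 5 included, which was the lowest. Of all tested genes, 7.35% showed groups that did not overlap on this scale, 4.69% with CD95-Ab higher. The log2 difference was 0.92. The exact two-sided permutation p was 0.00794, the smallest that 5 against 5 mice can give, or 0.108 after adjustment over all tested genes. Every gene with that smallest p has this adjusted value, so the adjusted exact test could call no gene on this scale. In edgeR's test on this scale the log2 change was 0.91 ± 0.46 (SE) with an adjusted p of 0.156, so it was not called there. This fit gave wide standard errors to steady shares as well. The share of mt-Co2 had a coefficient of variation of 3.45% among saline mice and a standard error of 0.38. A missing call in this fit therefore does not show that a share was unchanged. mt-Rnr2 showed no such shift, at 0.562% to 0.839% in saline and 0.533% to 0.851% in CD95-Ab mice.

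Because the 2 rRNA genes are neighbours, separated by a tRNA gene and transcribed from the same strand, their ratio was compared within each mouse. In saline mice mt-Rnr2 had 2.19, 1.99, 2.02, 2.35 and 2.30 times the counts of mt-Rnr1. In CD95-Ab mice the ratio was 1.09, 0.863, 1.35, 0.885 and 1.23. The groups did not overlap, and the lowest saline ratio was well above the highest CD95-Ab ratio. The log2 difference was -1.02, with an exact two-sided permutation p of 0.00794 for 5 against 5 mice and 0.0317 after adjustment over the 4 ratios compared. It stayed between -1.11 and -0.95 when any mouse was left out. Per length the order of the pair changed: mt-Rnr2 exceeded mt-Rnr1 in FPKM in 5 of 5 saline mice and was below it in 5 of 5 CD95-Ab mice, where the means were 643 FPKM ± 285 and 1022 FPKM ± 467.

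**Figure D4:**
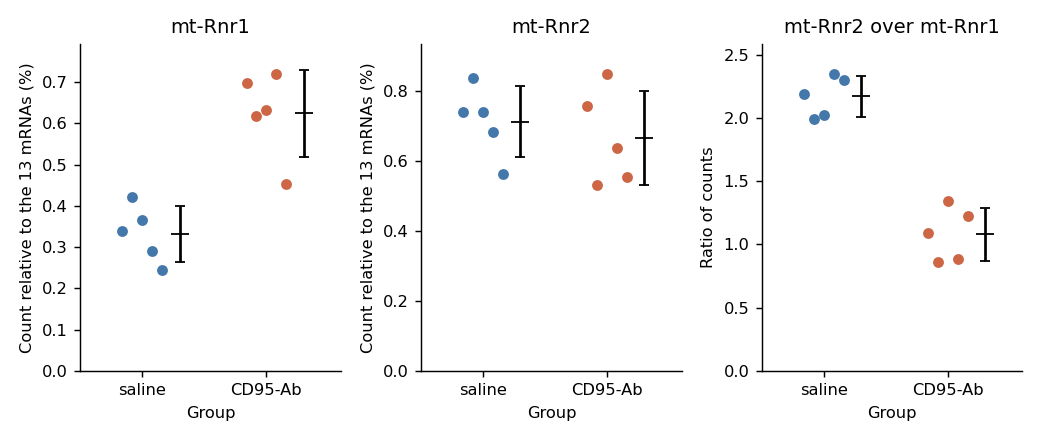
Counts of mt-Rnr1 and of mt-Rnr2 as a percentage of the summed counts of the 13 mRNAs (left and middle) and the ratio of mt-Rnr2 to mt-Rnr1 counts (right), with 1 point per mouse in replicate order and the mean ± SD beside them. The ratio was 1.99 to 2.35 in saline and 0.863 to 1.35 in CD95-Ab mice, while mt-Rnr2 relative to the mRNAs overlapped between groups.

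Of the mitochondrial rRNAs, mt-Rnr1 was called higher and mt-Rnr2 was not (adjusted p 0.353 by edgeR). Listed nuclear RNAs that normally carry no poly(A) tail were, in sum, higher in CD95-Ab mice. Of 10 such nuclear RNAs in the data, 3 passed the filter on low counts. All 3 were called higher, against 25.4% of all tested genes. With few counts in saline mice, they passed the filter mainly through the CD95-Ab mice, so these calls lend no separate support. Rny1 and Rny3, 2 of the listed genes, were at 0 in every mouse. The summed level of the list was 0.329 to 0.923 CPM in saline and 357 to 1308 CPM in CD95-Ab mice. Markers of other cells moved in the same direction: the summed platelet genes went from 2.48 to 9.27 CPM in saline up to 10.2 to 32.0 CPM in CD95-Ab mice, the neutrophil genes from 3.85 to 10.04 CPM up to 95.2 to 395 CPM, and the macrophage genes overlapped at 130 to 442 CPM and 255 to 567 CPM. The summed hepatocyte genes were 116558 to 149123 CPM in saline and 54213 to 94559 CPM in CD95-Ab mice. No gene of these cell lists was at 0 in all mice. Saline replicate 5 was the highest saline mouse in mt-Rnr1 CPM but the lowest relative to the 13 mRNAs (0.244%). Its RNAs without a poly(A) tail were at 0.408 CPM, inside the range of the other saline mice. The part of any of these RNAs or cells in the mt-Rnr1 values was not tested.

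The other neighbouring pairs kept their ratios within the spread between mice. mt-Atp8 to mt-Atp6, which share bases, stood at 0.0974 to 0.115 in saline and 0.0981 to 0.135 in CD95-Ab mice (log2 difference 0.09, exact permutation p 0.421). mt-Nd6 to mt-Nd5, encoded on opposite strands with overlapping ends, stood at 0.244 to 0.303 and 0.234 to 0.299 (log2 difference 0.00, exact permutation p 0.960). mt-Nd4l to mt-Nd4 stood at 0.0451 to 0.0476 and 0.0392 to 0.0559 (log2 difference -0.05, exact permutation p 0.635). For this last pair CD95-Ab replicate 5 was the highest of all mice, and without it the log2 difference was -0.13 with an exact permutation p of 0.0238 for 5 against 4 mice, before adjustment over the ratios.

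The count of mt-Nd4l is uncertain because of a nuclear copy. The pseudogene Gm10222 on chromosome 1 (GRCm38, chr1:24612407-24612700, minus strand) is identical to mt-Nd4l over 294 aligned bases, and its count equalled that of mt-Nd4l in all 10 mice, with a largest difference of 0. Whether the reads were divided equally between both names or entered under each was not tested, and the value of mt-Nd4l cannot be told apart from that of the copy. Its log2 fold change was 0.39 ± 0.44 (SE), with an adjusted p of 0.496 by edgeR, as for mt-Nd4l, and without saline replicate 5 it was 0.95, with an adjusted p of 0.0379. The other 8 nuclear copies in the tables had at least 90.7% identity and each held at most 0.00537% of the counts of the gene it copies. Of these, Gm13340, Gm13341 and Gm11410, copies of mt-Co1, mt-Co2 and mt-Cytb, were tested, and their log2 fold changes were 0.61, 0.54 and 0.86, with adjusted p-values of 0.316 to 0.529 by edgeR. Without saline replicate 5 they were 1.02, 0.85 and 1.42, and none of these 3 passed the test. A further 6 copies in the same stretch of chromosome 1, at 99.7% to 100.0% identity, were not among the genes listed, so no counts stood under them.

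The nuclear genes that make, process and translate mitochondrial RNA were mostly lower where they were called. In 6 lists of this machinery, 72 genes were tested, of which 6 were called higher and 30 lower, with a median log2 fold change of -0.26. In 4 lists of nuclear-encoded subunits of complexes I, III, IV and V, 71 genes were tested, of which 0 were called higher and 9 lower, with a median of -0.30. Without CD95-Ab replicate 4, calls lower over these 10 lists went from 39 to 64. Without saline replicate 5, calls among the nuclear subunits went from 9 to 4 and their median log2 fold change from -0.30 to -0.15. The lists are read against the 25.4% higher and 22.0% lower of all tested genes.

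Of 9 genes of mitochondrial transcription, 6 were called lower and 0 higher. Polrmt, the RNA polymerase itself, was at 15.5 to 19.8 CPM in saline and 9.71 to 15.7 CPM in CD95-Ab mice, ranges that overlapped slightly (log2 fold change -0.57 ± 0.14, adjusted p 0.00562 by edgeR). Tfam, which packages mitochondrial DNA and opens its promoters, was at 25.9 to 37.8 and 15.9 to 23.4 CPM, with no overlap (-0.66 ± 0.13, adjusted p 0.00173). The groups were likewise separate, with CD95-Ab mice lower, for 14.7% of all tested genes. Tfb2m, the factor that melts the promoter, changed less, from 20.4 to 25.8 CPM down to 15.8 to 18.7 CPM (-0.35 ± 0.11, adjusted p 0.0164). The largest falls of the list were in Mterf4 (-1.10) and Mterf2 (-1.09), members of the mitochondrial termination factor family, of which Mterf4 takes part in building the mitochondrial ribosome. The call of Tfb2m was lost without CD95-Ab replicate 2 (adjusted p 0.0504 by edgeR).

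Of 10 genes of mitochondrial DNA replication and upkeep, 7 were called lower and 0 higher. Polg2, the accessory subunit of the mitochondrial DNA polymerase, was at 4.19 to 5.63 CPM in saline and 0.859 to 2.46 CPM in CD95-Ab mice (log2 fold change -1.76 ± 0.28, adjusted p 0.00033 by edgeR). Twnk, the replicative helicase, had a log2 fold change of -1.14. Both sets of mice were separate for these genes, as was the case, with CD95-Ab mice lower, for 14.7% of all tested genes.

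Of 20 genes that cut, modify or stabilise mitochondrial RNA, 6 were called lower and 1 higher. The falls were led by Mrm1 (log2 fold change -1.15), a methyltransferase of the 16S rRNA, and Fastkd1 (-1.10), a member of the FASTK family of mitochondrial RNA-binding proteins. Fastkd3, of the same family, was the 1 called higher (0.45 ± 0.15, adjusted p 0.0239 by edgeR), with groups that just overlapped, and its call was lost when any of 5 mice was left out, with total counts as the scale (adjusted p 0.0945) and without the filter on low counts (0.0764). Lrpprc, which stabilises mitochondrial mRNAs, was at 87.8 to 119 CPM in saline and 65.8 to 103 CPM in CD95-Ab mice and did not pass the test (-0.22 ± 0.14, adjusted p 0.235).

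Of 5 genes of mitochondrial RNA decay, 2 were called higher and 0 lower. Pnpt1, the polynucleotide phosphorylase of mitochondria, was at 18.3 to 24.9 CPM in saline and 28.1 to 47.3 CPM in CD95-Ab mice (log2 fold change 0.64 ± 0.16, adjusted p 0.00569 by edgeR). Pde12, a phosphodiesterase that removes poly(A) from mitochondrial mRNAs, was at 6.16 to 11.3 and 15.9 to 22.3 CPM (1.09 ± 0.17, adjusted p 0.000243). For both genes every CD95-Ab mouse was above every saline mouse, as was the case for 18.6% of all tested genes.

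Regulators of mitochondrial biogenesis went both ways. Of 8 genes, 4 were called lower and 2 higher. Ppargc1b, a coactivator, was at 6.49, 5.16, 6.96, 6.31 and 6.76 CPM in saline mice and at 1.03, 0.732, 1.15, 0.565 and 0.841 CPM in CD95-Ab mice. The groups were far apart (log2 fold change -2.87 ± 0.20, adjusted p 1.38e-06 by edgeR). Its relative Ppargc1a fell with a log2 fold change of -1.52 ± 0.36 (adjusted p 0.00459), and Ppara, the nuclear receptor for fatty acids, with one of -1.60 ± 0.35 (adjusted p 0.00261). The third coactivator of the family, Pprc1, was higher (0.89 ± 0.16, adjusted p 0.000743). Gabpb1, a subunit of nuclear respiratory factor GABP, was higher as well (0.49 ± 0.17, adjusted p 0.0307), and its call was lost when any of 6 mice was left out, saline replicate 5 among them (adjusted p 0.0613 by edgeR). It was also lost with upper quartile factors (0.0534), with total counts as the scale (0.0998) and without the filter on low counts (0.0573).

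Of 20 genes that charge mitochondrial tRNAs, 7 were called lower and 1 higher. Gatc, a subunit of the amidotransferase that makes the glutamine tRNA, had a log2 fold change of -0.75 ± 0.11 (adjusted p 0.000225 by edgeR), and Hars2, the histidine enzyme, one of -0.58 ± 0.13 (adjusted p 0.00316). Lars2, the leucine enzyme, went the other way. It was at 32.0, 28.6, 35.4, 39.5 and 81.3 CPM in saline mice and at 242, 342, 617, 684 and 319 CPM in CD95-Ab mice, with no overlap (3.34 ± 0.38, adjusted p 3.02e-05). Of all tested genes, 18.6% were separate in this direction. Saline replicate 5 was again the highest of its group.

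Among nuclear subunits of the respiratory chain, 4 of 36 complex I genes, 3 of 9 complex III genes, 0 of 12 complex IV genes and 2 of 14 complex V genes were called lower. In all these were 9 of 71 genes, a smaller share than the 22.0% of all tested genes, and 4 of 71 without saline replicate 5. Ndufs3 of complex I was at 78.3 to 122 CPM in saline and 51.1 to 85.6 CPM in CD95-Ab mice (log2 fold change -0.53 ± 0.18, adjusted p 0.0290 by edgeR). Atp5c1, a complex V subunit, was at 172 to 270 and 129 to 170 CPM, without overlap (-0.52 ± 0.15, adjusted p 0.0146). The groups were separate in this direction for 14.7% of all tested genes. Ndufa6 (-0.69), Atp5a1 (-0.46), Uqcrc1 (-0.43) and Cyc1 (-0.42) were also called lower. The calls of Ndufa6, Ndufs3, Uqcrc1 and Cyc1 were each lost when any of 5 to 7 mice was left out, and without saline replicate 5 their adjusted p-values by edgeR were 0.0601 to 0.107. Those of Ndufa6 and Uqcrc1 were also lost when at least 10 counts were asked for in every mouse (adjusted p 0.0512 and 0.0514).

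The mitochondrial and nuclear messages for the same complexes were then set side by side in each mouse. The 13 mitochondrial mRNAs had 9.54, 9.12, 11.1, 10.9 and 23.5 times the summed counts of the 71 nuclear subunits in saline mice and 13.2, 18.8, 24.7, 28.9 and 24.6 times in CD95-Ab mice. All CD95-Ab mice were above the other 4 saline mice, and saline replicate 5 was above 2 of them. The nuclear sum itself was 7166 to 10636 CPM in saline and 5559 to 8883 CPM in CD95-Ab mice.

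**Figure D5:**
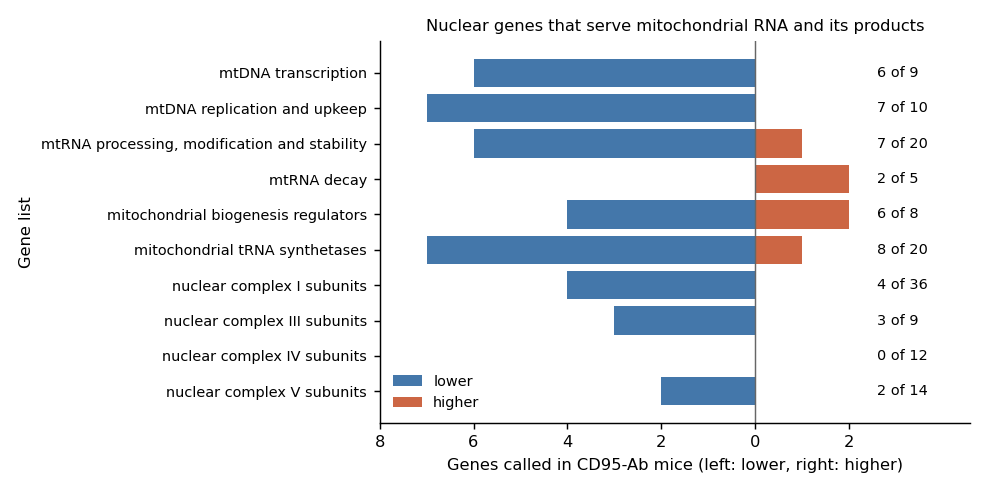
Number of nuclear genes (x axis) called lower (left) and higher (right) in CD95-Ab mice by edgeR in each of 10 gene lists (y axis), with the total called of the number tested at the right. Transcription (6 of 9) and replication (7 of 10) genes were called lower, decay genes (2 of 5) higher, and none of 12 complex IV genes was called.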

How the data were processed

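Liver RNA of 5 saline and 5 CD95-Ab mice was sequenced in paired reads of 100 nt. The authors deposited RSEM (version 1.2.19 per the labels) expected counts, all whole numbers here, and FPKM per gene. The methods name a human annotation, while the gene identifiers are mouse; the mouse build and release are not given in the sources used here. The deposited FPKM imply gene lengths 52.5 to 64.0 nt shorter than annotated. RSEM divides reads that fit several genes among them.

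Symbols were matched for 37606 of 38922 identifiers. Positions and sequences came from GENCODE M21 (GRCm38), and nuclear copies from BLAST+ 2.17.0 (identity of 90% or more over at least 50 nt). Genes were filtered with filterByExpr (minimum count 10), scaled by TMM and tested with edgeR 4.0.16 in R 4.3.3 (quasi-likelihood, no block), with 0.05 as the threshold. A second fit took the 13 mRNAs as library size. Shares used log2 values with 0.5 added to counts. The fit in CPM was tested on simulated counts with less spread between mice than the mitochondrial genes showed here. That test does not give its power for them. Depth was 25965699 to 62097636 counts, so 3 counts equal 0.0483 to 0.116 CPM. Alternatives were DESeq2 1.42.0, other scalings and filters, and leaving out mice.

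The members and lists were chosen with earlier results of these data known. All mt- genes were named, from each list up to 2 of the largest calls in each direction, always Polrmt, Tfam, Tfb2m, Lrpprc, Pnpt1 and Ppargc1a, and every tested nuclear copy. p-values measure the spread between mice. Replicate numbers did not pair mice.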

Additional observations from a re-analysis of the deposited data

Results flagged for a closer look

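Saline replicate 5 lay far above the other 4 saline mice in CPM for each of the 15 mitochondrial genes with counts and in their summed shares of all counts. The size of its gap, as a fraction of the range of the group, was compared with 0.71, a limit that chance passes in about 1 in 20 groups of 5. The fraction was 0.821 for the share of all 37 genes in all counts, 0.820 for the 13 mRNAs and 0.770 for the 2 rRNAs. In CPM it was 0.731 for mt-Rnr1, 0.817 for mt-Rnr2, 0.799 for mt-Nd1, 0.885 for mt-Nd2, 0.721 for mt-Nd3, 0.843 for mt-Nd4, 0.842 for mt-Nd4l and its nuclear copy Gm10222, 0.801 for mt-Nd5, 0.799 for mt-Nd6, 0.808 for mt-Co1, 0.773 for mt-Co2, 0.749 for mt-Co3, 0.815 for mt-Atp6, 0.850 for mt-Atp8 and 0.818 for mt-Cytb. These are measures of the same library and not separate events. No share within the 13 mRNAs and none of the 4 ratios set it apart in this way.

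Among the nuclear genes, saline replicate 5 was also far above its group in Lars2 (0.794) and Ndufa6 (0.890). CD95-Ab replicate 4 was far above its group in Ndufa6 (0.753), CD95-Ab replicate 3 in Atp5a1 (0.768) and CD95-Ab replicate 2 in Pnpt1 (0.787).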

How the results depend on the processing

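The call of mt-Rnr1 as higher held in CPM under the other library scalings and filters, the replicate block, DESeq2 and the added nuclear copies, with log2 fold changes of 1.39 to 1.52 and adjusted p-values up to 0.0117. It also held when any mouse was left out, from 1.11 without CD95-Ab replicate 4 to 1.78 without saline replicate 5, with adjusted p-values up to 0.0216. Relative to the 13 mRNAs it was not called by edgeR (0.91 ± 0.46 (SE), adjusted p 0.156), in a fit with wide standard errors. The exact test gave it an adjusted p of 0.108, the lowest that test could give for any gene. The log2 fold changes in CPM of the 14 other mitochondrial genes stayed above 0 in all of these CPM fits. Leaving out a mouse gave 5616 to 6977 called genes, with 1 to 9 mitochondrial genes higher (9 without saline replicate 5) and 0 lower. Of the 10 lists, 32 to 69 genes were then called, 4 to 6 higher and 28 to 64 lower. The difference in the mitochondrial share was 1.54 to 5.96 points. For a changed share 0 mRNAs were called, in a fit whose wide standard errors could miss changes of the size seen. Total counts without scaling gave 60 list genes lower in place of 39. DESeq2 called 6990 genes, TMM factors taken before the filter gave 6643 and the newer quasi-likelihood setting of edgeR (legacy=FALSE) 6563. The last 2, and the exact test of shares, were chosen after seeing the data. With upper quartile factors, 46.8% of calls were higher, against 53.6% in the reported fit.

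The ratio of mt-Rnr2 to mt-Rnr1 ran from -1.11 to -0.95 over the mice left out, that of mt-Atp8 to mt-Atp6 from 0.01 to 0.13, that of mt-Nd4l to mt-Nd4 from -0.13 to -0.0018 and that of mt-Nd6 to mt-Nd5 from -0.035 to 0.053, below 0 in 6 of them, and it was -0.000322 with FPKM. Relative to the 13 mRNAs, changes near 0 turned sign when a mouse was left out: mt-Nd4l ran from -0.13 to 0.060, mt-Nd3 from -0.024 to 0.083, mt-Nd4 from -0.015 to 0.066, mt-Atp6 from -0.017 to 0.062 and mt-Nd6 from -0.19 to 0.0016. mt-Nd4l was also at -0.046 with FPKM and at -0.020 in the exact test. The log2 fold change of Gm13341 ran from -0.012 to 0.85. The causes were not tested.

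Mice that shared a replicate number did not deviate together (correlations of -0.27 to 0.26, 2 of 5 saline mice closest to their own number), so the numbers do not pair them. With the replicate block, 5987 genes were called, among them 1 mitochondrial gene, 5 list genes higher and 34 lower; Fastkd3 (adjusted p 0.0618) and Uqcrc1 (0.0514) lost their calls, and mt-Nd4l relative to the 13 mRNAs turned to -0.020.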
